A study of Mus musculus with 30 samples.

Results

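AML12 cells depleted of FoxK1 were compared with AML12 cells depleted of FoxK2, both after insulin. The members are the 4 insulin-treated libraries labelled Foxk1 KD (here FoxK1 KD) and the 4 labelled Foxk2 KD (FoxK2 KD), taken by their labels from 30 libraries in the series, with every counted gene kept. AML12 is an immortalized hepatocyte line established from mice that carry a transforming growth factor alpha transgene. Per the study's methods, genes were knocked down by transient siRNA transfection, so no group is a clone, and Control cells received a non-silencing siRNA. All cells were held overnight in DMEM with 0.1% BSA, and the 8 libraries come from cells then given 100 nM insulin for 6 h. The series also holds Control cells and cells with both factors knocked down (Double FoxK1/2 KD, here double KD) after the same insulin treatment, with 3 libraries each, and all 4 genotypes in the basal state, mock treated without insulin (labelled 0min), with 4 libraries each. Levels are read counts per gene in polyA RNA, scaled to the library total after TMM normalization (CPM). Log2 differences are FoxK1 KD minus FoxK2 KD, so a positive value means higher in FoxK1 KD.

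FoxK1 and FoxK2 are paralogous forkhead transcription factors that carry a forkhead-associated domain beside the DNA-binding domain and recruit corepressor complexes built on SIN3 and BAP1. They have been tied to aerobic glycolysis, to repression of autophagy genes and, through Dishevelled, to Wnt signaling. In hepatocytes insulin acts through AKT, which drives the related FoxO factors out of the nucleus and lowers fasting-type genes, while lipid synthesis and glycolysis rise. The comparison asks how the transcriptome of insulin-treated hepatocytes differs according to which paralog was reduced.

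The FoxK1 KD libraries held 2345903 to 2673390 counts and the FoxK2 KD libraries 3195833 to 4440948, so every FoxK1 KD library was shallower. The first principal component of the 8 libraries carried 26.5% of the variance and separated the groups. All 9 hepatocyte markers had counts, with a summed level of 872 to 960.1 CPM in FoxK1 KD and 773 to 878 CPM in FoxK2 KD. Most of that sum was Apob, at 614 to 699 CPM against 495 to 599 CPM, and 5 of the 8 markers tested had a negative log2 difference (median -0.07). Alb, albumin, was low, at 5.17 to 19.7 CPM against 6.33 to 8.50 CPM. The mitochondrially encoded share of counts was 1.58%, 1.58%, 1.52% and 1.31% in FoxK1 KD and 1.16%, 1.19%, 1.39% and 1.49% in FoxK2 KD. The groups overlapped, with a difference of 0.191 percentage points (exact two-sided permutation test, p = 0.114, n = 4 and 4, smallest possible p 0.0286). The labels do not say whether libraries of a group came from separate cultures, so p-values measure the spread between libraries, which may be technical. For single genes below, that spread was estimated over the libraries of all 8 groups. In bulk RNA, fewer cells of one kind and less RNA per cell cannot be told apart.

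Each knockdown lowered its own target. Foxk1 (ENSMUSG00000056493.9, chromosome 5, 142401497 to 142462011, plus strand, GRCm38) was at 30.7, 28.0, 29.6 and 35.3 CPM in FoxK1 KD and 52.5, 50.3, 48.8 and 58.0 CPM in FoxK2 KD. It differed by -0.76 on the log2 scale (SE 0.13, adjusted p = 0.00045), without overlap. Control cells after insulin stood at 53.0 ± 4.46 CPM (mean and SD, n = 3), as high as the FoxK2 KD cells. Foxk2 (ENSMUSG00000039275.9, chromosome 11, 121259990 to 121309896, plus strand, GRCm38) was at 149.6, 148, 123 and 135 CPM in FoxK1 KD and 63.5, 68.5, 68.9 and 62.0 CPM in FoxK2 KD. It differed by 1.08 on the log2 scale (SE 0.09, adjusted p = 2.9e-10), without overlap, and Control cells stood at 163 ± 5.66 CPM. Against those Control libraries, which both contrasts share, the log2 difference of Foxk1 was -0.78 in FoxK1 KD and -0.02 in FoxK2 KD, and that of Foxk2 was -0.22 in FoxK1 KD and -1.31 in FoxK2 KD. The fall of the target was thus -0.78 for Foxk1 and -1.31 for Foxk2, values that were not tested against each other.

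In double KD cells after insulin, Foxk1 stood at 34.2 ± 5.78 CPM and Foxk2 at 64.3 ± 4.61 CPM (n = 3). Basal Foxk1 was at 81.4 ± 10.4 CPM in Control, 36.8 ± 6.43 CPM in FoxK1 KD, 69.9 ± 10.7 CPM in FoxK2 KD and 46.5 ± 3.43 CPM in double KD cells (SD, n = 4). Basal Foxk2 was at 140.2 ± 8.25 CPM, 117 ± 12.1 CPM, 47.3 ± 3.46 CPM and 50.2 ± 5.69 CPM in the same order.

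**Figure D1:**
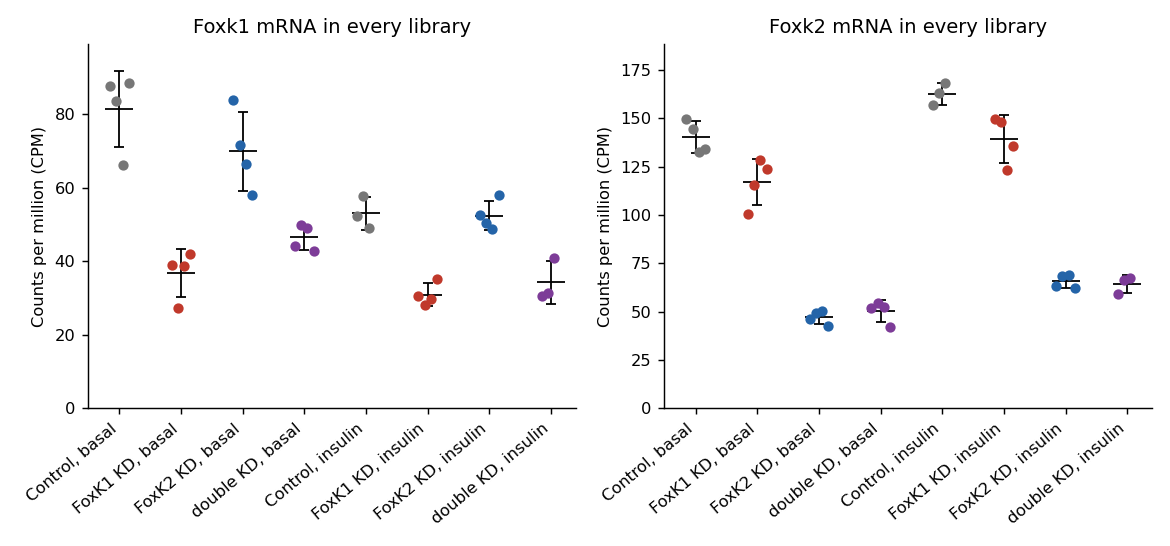
CPM of Foxk1 (left) and Foxk2 (right) in all 30 libraries by group, where points are libraries, the bar is the mean and the whiskers 1 SD. Foxk1 is lowest in the FoxK1 KD and double KD groups and Foxk2 in the FoxK2 KD and double KD groups, in both states.

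Of 11368 genes tested, 226 were higher and 187 lower in FoxK1 KD than in FoxK2 KD cells. A gene was called at an adjusted p below 0.05 (quasi-likelihood test of edgeR, adjusted by Benjamini-Hochberg), which 3.63% of genes passed, 1.99% higher and 1.64% lower. These counts come from a fit of all 8 groups, and a fit of the 8 compared libraries alone called 429 higher and 297 lower. Most differences were moderate, with a median of 0.54 among genes higher and -0.40 among genes lower. A difference above 1.5-fold was reached by 105 of the higher and 33 of the lower genes, and one above 2-fold by 29 and 6. The libraries of the groups did not overlap for 387 of the 413 called genes, against 12.5% of all genes tested.

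Many calls rested on all 8 libraries. Leaving out FoxK1 KD replicate 1, 2, 3 or 4 left 128, 147, 149 and 146 genes higher and 90, 88, 106 and 91 lower. Without FoxK2 KD replicate 1, 2, 3 or 4 there were 155, 124, 179 and 172 higher and 100, 89, 141 and 131 lower. No called gene changed direction in these 8 omissions, which was likely in advance, since they reuse libraries in which the genes were called. Of the 413, 130 kept the call in all 8. A gene named below as called kept it in all 8 unless a smaller number is given. With the 8 libraries thinned to the smallest total, 175 genes were higher and 149 lower, and 301 of the 413 calls were kept.

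Receptors and secreted proteins were among the genes with the largest positive differences. Siglecg, a sialic acid-binding receptor that dampens B cell signaling, was at 6.28, 7.84, 6.35 and 6.68 CPM in FoxK1 KD and 1.32, 0.825, 0.303 and 0.63 CPM in FoxK2 KD. It differed by 3.01 on the log2 scale (SE 0.38, adjusted p = 1.9e-06), without overlap. Siglecg rested on few reads, 15 to 21 per library against 1 to 6. S100a7a, a psoriasin-type calcium-binding protein, was at 5.17, 5.5997, 1.69 and 5.20 CPM in FoxK1 KD and 1.10, 0.275, 0.91 and 0.945 CPM in FoxK2 KD. It differed by 2.41 on the log2 scale (SE 0.42, adjusted p = 0.00043), without overlap. One FoxK1 KD library, replicate 3, was far below the other libraries of its group. Thbs1, thrombospondin 1, a matrix glycoprotein that activates TGF-beta, was at 66.1, 51.9, 69.9 and 73.1 CPM in FoxK1 KD and 20.3, 21.5, 22.8 and 25.8 CPM in FoxK2 KD. It differed by 1.54 on the log2 scale (SE 0.12, adjusted p = 2.2e-10), without overlap. Thbs1 had the smallest p of all genes, and each FoxK1 KD library held more than 2 times the level of any FoxK2 KD library. Ifit3, an interferon-induced antiviral protein, was at 12.9, 17.5, 14.0 and 15.6 CPM in FoxK1 KD and 4.63, 4.95, 7.58 and 5.98 CPM in FoxK2 KD. It differed by 1.40 on the log2 scale (SE 0.20, adjusted p = 2.5e-05), without overlap. Its near-copy Ifit3b, with which it may share reads, was at 7.39 to 13.4 CPM against 4.41 to 4.95 CPM and differed by 1.16 (adjusted p = 0.00084).

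Csf1r, the receptor for the macrophage growth factor CSF1, was at 9.24, 8.21, 8.89 and 10.02 CPM in FoxK1 KD and 4.85, 3.03, 2.12 and 2.83 CPM in FoxK2 KD. It differed by 1.44 on the log2 scale (SE 0.24, adjusted p = 0.0002), without overlap. Of 13 macrophage and leukocyte markers, Csf1r among them, 7 had no count in any of the 8 libraries, among them the defining Adgre1, Clec4f and Lyz2, and the summed level was 93.7 to 112 CPM in FoxK1 KD against 112 to 141 CPM in FoxK2 KD, most of it Cd14. Ctla2a, an inhibitor of cathepsin-type proteases with a near-copy, Ctla2b, was at 3.32 to 5.94 CPM against 0.945 to 2.12 CPM, a log2 difference of 1.64 (adjusted p = 0.0029). Crocc2, of the ciliary rootlet protein family, was at 5.93 to 10.4 CPM against 1.38 to 3.34 CPM, a log2 difference of 1.60 (adjusted p = 0.0003). Vgll3, a cofactor of TEAD transcription factors, was at 7.76 to 10.5 CPM against 2.52 to 4.63 CPM, a log2 difference of 1.31 (adjusted p = 0.003). These were genes of a few CPM, and the next ones lost calls when libraries were left out. Dlc1, a GTPase-activating protein, was at 3.36 to 5.17 CPM against 0.91 to 1.76 CPM, a log2 difference of 1.503 (adjusted p = 0.0074). Dlc1 kept its call in 7 of 8 omissions (adjusted p up to 0.059 without FoxK1 KD replicate 1). Ak5, an adenylate kinase, was at 2.60 to 4.43 CPM against 0.55 to 2.20 CPM, a log2 difference of 1.35 (adjusted p = 0.022). Ak5 kept its call in 4 of 8 omissions (adjusted p up to 0.13 without FoxK2 KD replicate 2). Dnm3, a dynamin, was at 2.24 to 4.23 CPM against 0.825 to 2.20 CPM, a log2 difference of 1.34 (adjusted p = 0.026). Dnm3 kept its call in 2 of 8 omissions (adjusted p up to 0.12 without FoxK2 KD replicate 2). 4930486L24Rik was at 6.77 to 10.1 CPM against 3.09 to 4.13 CPM, a log2 difference of 1.22 (adjusted p = 0.033). 4930486L24Rik kept its call in 1 of 8 omissions (adjusted p up to 0.11 without FoxK1 KD replicate 2). Its exons overlap other annotated genes on the same strand.

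**Figure D2:**
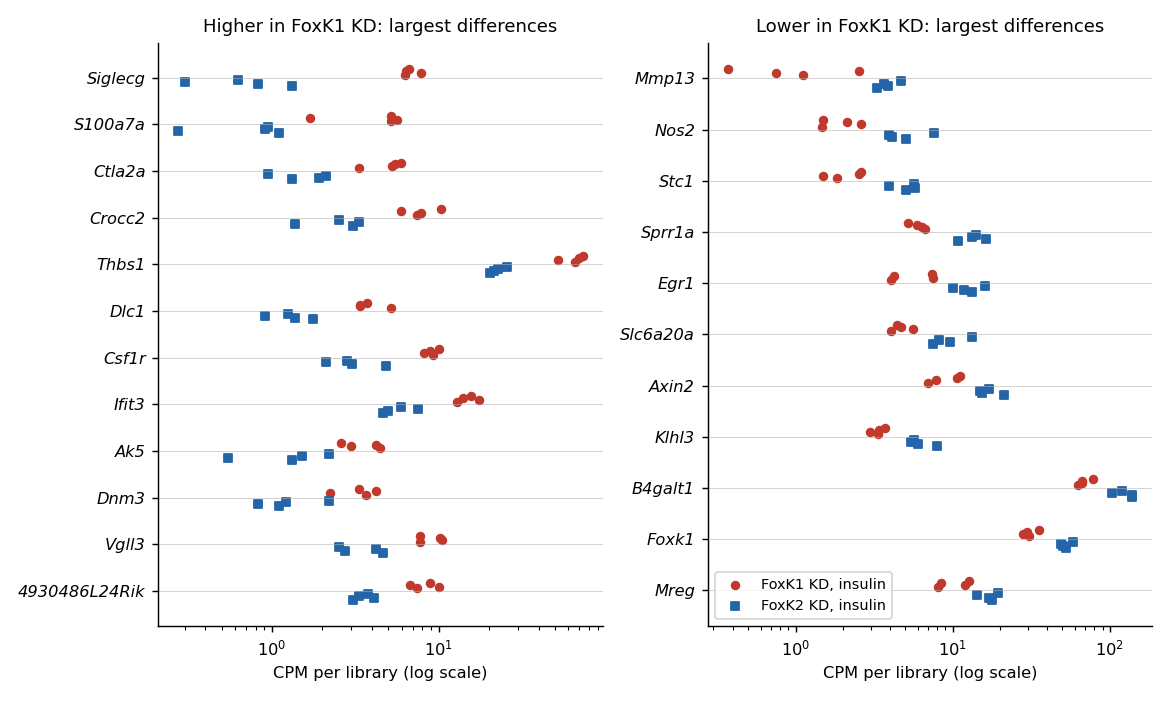
CPM in each insulin-treated library (log axis) of protein-coding genes with the largest difference in each direction, where circles are FoxK1 KD and squares FoxK2 KD libraries. The 4 circles and 4 squares of a gene do not overlap, as the choice of genes required, and Siglecg, S100a7a and Mmp13 lie at the low end of the axis.

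Among genes lower in FoxK1 KD cells, the largest differences included a protease, an immediate-early factor and a Wnt feedback gene. Mmp13, an interstitial collagenase, was at 1.11, 0.747, 2.54 and 0.371 CPM in FoxK1 KD and 3.31, 3.85, 3.64 and 4.72 CPM in FoxK2 KD. It differed by -1.71 on the log2 scale (SE 0.41, adjusted p = 0.012), without overlap. Mmp13 kept its call in 6 of 8 omissions (adjusted p up to 0.067 without FoxK1 KD replicate 4). That is 1 to 6 reads per library against 12 to 15. Egr1, an immediate-early transcription factor downstream of ERK, was at 4.06, 7.47, 4.23 and 7.42 CPM in FoxK1 KD and 13.2, 11.8, 10.01 and 16.1 CPM in FoxK2 KD. It differed by -1.13 on the log2 scale (SE 0.25, adjusted p = 0.0057), without overlap. Axin2, a feedback inhibitor and common readout of Wnt signaling, was at 7.02, 7.84, 10.6 and 11.1 CPM in FoxK1 KD and 21.4, 15.4, 14.9 and 17.0 CPM in FoxK2 KD. It differed by -0.93 on the log2 scale (SE 0.21, adjusted p = 0.0086), without overlap. Axin2 kept its call in 6 of 8 omissions (adjusted p up to 0.053 without FoxK2 KD replicate 1). Control cells after insulin had Axin2 at 10.1 ± 2.83 CPM, nearer to FoxK1 KD. B4galt1, a Golgi galactosyltransferase, was at 62.8, 66.4, 66.9 and 77.9 CPM in FoxK1 KD and 139, 138, 103 and 120.3 CPM in FoxK2 KD. It differed by -0.87 on the log2 scale (SE 0.11, adjusted p = 1.4e-06), without overlap. Sprr1a, a cornified envelope precursor, was at 5.20 to 6.65 CPM against 10.8 to 16.2 CPM, a log2 difference of -1.16 (adjusted p = 0.00027). Control cells had Sprr1a at 21.6 ± 1.61 CPM, above both knockdowns.

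The rest of the set was less stable. Nos2, inducible nitric oxide synthase, was at 1.48 to 2.61 CPM against 3.94 to 7.56 CPM, a log2 difference of -1.41 (adjusted p = 0.018). Nos2 kept its call in 5 of 8 omissions (adjusted p up to 0.074 without FoxK2 KD replicate 4). Stc1, the secreted glycoprotein stanniocalcin 1, was at 1.49 to 2.60 CPM against 3.94 to 5.78 CPM, a log2 difference of -1.27 (adjusted p = 0.04). Stc1 kept its call in 1 of 8 omissions (adjusted p up to 0.14 without FoxK1 KD replicate 2). Slc6a20a, a proline transporter, was at 4.06 to 5.5997 CPM against 7.50 to 13.2 CPM, a log2 difference of -1.01 (adjusted p = 0.023). Slc6a20a kept its call in 3 of 8 omissions (adjusted p up to 0.099 without FoxK2 KD replicate 4). Klhl3, an adaptor of CUL3 ubiquitin ligases, was at 2.99 to 3.71 CPM against 5.46 to 7.94 CPM, a log2 difference of -0.92 (adjusted p = 0.042). Klhl3 kept its call in 1 of 8 omissions (adjusted p up to 0.16 without FoxK2 KD replicate 1). The next gene had, in FoxK1 KD, a level close to that of Control cells. Mreg, melanoregulin, was at 8.13 to 12.6 CPM against 14.3 to 19.5 CPM, a log2 difference of -0.73 (adjusted p = 0.026). Mreg kept its call in 3 of 8 omissions (adjusted p up to 0.11 without FoxK1 KD replicate 1). In Control cells after insulin Mreg was at 10.7 ± 2.52 CPM. The strand setting of the counting is not given in the sources used here. Reads of Thbs1, Csf1r, Ak5, Dnm3, Stc1, Axin2 and Slc6a20a therefore cannot be told apart from those of genes annotated over their exons on the opposite strand. That also holds below for Becn1, Bnip3, Ccnd1, Celf2, Cpt1c, Cttnbp2, Cxcl16, Dusp1, E2f5, E2f8, Fbxo32, Fgfr3, Kcnq1ot1, Krt7, Lss, Malat1, Ncam1, Ndrg1, Ptpn14, Slc2a1, Tgoln1, Vcam1 and Wnt7b, and for mt-Nd5 and mt-Nd6 between each other.

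Genes with the smallest p, taken from those without overlap between the groups, were better expressed and tightly grouped, which a small p favors. Akap12, a scaffold for protein kinases A and C, was at 529, 487, 568 and 536 CPM in FoxK1 KD and 321, 314, 323 and 341 CPM in FoxK2 KD. It differed by 0.71 on the log2 scale (SE 0.07, adjusted p = 9e-08), without overlap. Igf1r, the IGF-1 receptor tyrosine kinase, was at 125, 131, 138 and 137 CPM in FoxK1 KD and 77.2, 68.2, 84.0 and 79.7 CPM in FoxK2 KD. It differed by 0.79 on the log2 scale (SE 0.09, adjusted p = 2.5e-07), without overlap. Control cells stood between the knockdowns, at 91.7 ± 4.89 CPM. Cttnbp2, a cortactin-binding protein, was at 89.4 to 103 CPM against 46.2 to 59.5 CPM, a log2 difference of 0.95 (adjusted p = 1.8e-07). Fgd3, an exchange factor of CDC42, was at 89.6 to 113 CPM against 55.8 to 64.6 CPM, a log2 difference of 0.80 (adjusted p = 4e-07). Parm1, a mucin-like membrane protein, was at 225 to 240.5 CPM against 144 to 151 CPM, a log2 difference of 0.66 (adjusted p = 2.9e-07). Ccdc9b was at 73.7 to 86.4 CPM against 36.9 to 43.9 CPM, a log2 difference of 0.97 (adjusted p = 1.8e-07). Further receptor genes, picked after their values were seen, were also higher. Egfr, the EGF receptor, was at 388 to 435 CPM against 249.5 to 289 CPM, a log2 difference of 0.59 (adjusted p = 4.9e-06). Fgfr3, an FGF receptor, was at 35.6 to 42.3 CPM against 14.3 to 22.4 CPM, a log2 difference of 1.01 (adjusted p = 2.5e-05). Axl, a receptor tyrosine kinase for GAS6, was at 1575 to 1729.6 CPM against 1133 to 1241 CPM, a log2 difference of 0.47 (adjusted p = 1.2e-05). Prex2, a RAC exchange factor picked in the same way, was at 40.8 to 56.5 CPM against 19.5 to 24.5 CPM, a log2 difference of 1.01 (adjusted p = 3.5e-05).

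In the other direction, a lipid enzyme and an adhesion molecule had the smallest p. Scd1, the stearoyl-CoA desaturase that makes monounsaturated fatty acids, was at 926, 986, 915 and 859.6 CPM in FoxK1 KD and 1456, 1540.2, 1482 and 1555 CPM in FoxK2 KD. It differed by -0.71 on the log2 scale (SE 0.08, adjusted p = 1.8e-07), without overlap. Vcam1, a cytokine-induced adhesion molecule, was at 123, 127, 122 and 124 CPM in FoxK1 KD and 187, 203, 208 and 220.2 CPM in FoxK2 KD. It differed by -0.72 on the log2 scale (SE 0.08, adjusted p = 2.8e-07), without overlap. Tgoln1, a trans-Golgi protein with a near-copy, Tgoln2, was at 380.5, 369, 405 and 366 CPM in FoxK1 KD and 606, 638, 580.0 and 614 CPM in FoxK2 KD. It differed by -0.68 on the log2 scale (SE 0.08, adjusted p = 2.8e-07), without overlap. All FoxK1 KD libraries lay below all FoxK2 KD libraries for these genes, as the choice of the set required. Aff4, a scaffold of the super elongation complex, was at 259.7, 251, 310.3 and 285 CPM in FoxK1 KD and 439, 436, 397 and 420.5 CPM in FoxK2 KD. It differed by -0.61 on the log2 scale (SE 0.07, adjusted p = 6.8e-07), without overlap. Dtx4, an E3 ubiquitin ligase, was at 90.9 to 115 CPM against 157 to 162 CPM, a log2 difference of -0.58 (adjusted p = 2.6e-05). Ero1l and Pdk1, also in this set, are described with their pathways.

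Several genes of glucose breakdown were lower in FoxK1 KD than in FoxK2 KD cells. Of 26 tested genes of glucose uptake, glycolysis and lactate export, 8 were lower and 0 higher, with a median log2 difference of -0.24 against -0.0048 over all genes. Hk2, a hexokinase, was at 36.2, 36.6, 33.4 and 34.9 CPM in FoxK1 KD and 49.8, 52.5, 48.2 and 50.1 CPM in FoxK2 KD. It differed by -0.51 on the log2 scale (SE 0.11, adjusted p = 0.0038), without overlap. Pfkl, liver phosphofructokinase, was at 198, 208, 179.5 and 218 CPM in FoxK1 KD and 295, 288, 276 and 264 CPM in FoxK2 KD. It differed by -0.48 on the log2 scale (SE 0.11, adjusted p = 0.0077), without overlap. Both genes were thus lower in every FoxK1 KD library. Ldha, which makes lactate from pyruvate, was at 838, 854, 848 and 899 CPM in FoxK1 KD and 1178, 1225, 1188 and 1145 CPM in FoxK2 KD. It differed by -0.46 on the log2 scale (SE 0.10, adjusted p = 0.0075), without overlap. Aldoc, an aldolase, was at 16.1 to 19.9 CPM against 21.4 to 28.8 CPM, a log2 difference of -0.56 (adjusted p = 0.017). Aldoc kept its call in 5 of 8 omissions (adjusted p up to 0.073 without FoxK1 KD replicate 2). Pgk1, phosphoglycerate kinase, was at 218 to 264 CPM against 280.0 to 339 CPM, a log2 difference of -0.34 (adjusted p = 0.021). Pgk1 kept its call in 4 of 8 omissions (adjusted p up to 0.13 without FoxK2 KD replicate 2). The remaining called members had small differences. Pfkp, platelet phosphofructokinase, differed by -0.41 on the log2 scale (adjusted p = 0.038, call kept in 1 of 8 omissions). Slc2a1, the glucose transporter GLUT1, was at 156 to 197 CPM against 221 to 247 CPM, a log2 difference of -0.38 (adjusted p = 0.042). Slc2a1 kept its call in 1 of 8 omissions (adjusted p up to 0.16 without FoxK1 KD replicate 3). Gapdh, the glyceraldehyde phosphate dehydrogenase, differed by -0.26 on the log2 scale (adjusted p = 0.047, call kept in 0 of 8 omissions). In Control cells after insulin Hk2 was at 50.1 ± 3.12, Pfkl at 279.9 ± 60.3 and Ldha at 1231 ± 186 CPM, near the FoxK2 KD level. Over the omissions, 3 members were called without FoxK2 KD replicate 2, 4 without FoxK1 KD replicate 1 or 3 or FoxK2 KD replicate 3, and 5 in the others.

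HIF factors and hypoxia-type targets, a list that shares Slc2a1 with the glycolysis list, had 5 of 24 tested members lower and 0 higher (median -0.22). Ero1l, an ER oxidoreductase induced by hypoxia, was at 83.1, 82.1, 83.4 and 85.4 CPM in FoxK1 KD and 129, 131, 122 and 118 CPM in FoxK2 KD. It differed by -0.58 on the log2 scale (SE 0.08, adjusted p = 1.1e-05), without overlap. Egln3, a prolyl hydroxylase that marks HIF for degradation, was at 28.4, 23.5, 24.6 and 31.5 CPM in FoxK1 KD and 35.3, 41.3, 47.3 and 40.9 CPM in FoxK2 KD. It differed by -0.60 on the log2 scale (SE 0.13, adjusted p = 0.0047), without overlap. Ndrg1, a gene of the stress and hypoxia response, was at 216 to 228 CPM against 292 to 319 CPM, a log2 difference of -0.44 (adjusted p = 0.00019). Bnip3, a mitophagy receptor, was at 27.1 to 38.5 CPM against 40.1 to 67.9 CPM, a log2 difference of -0.52 (adjusted p = 0.043). Bnip3 kept its call in 2 of 8 omissions (adjusted p up to 0.31 without FoxK2 KD replicate 2). Over the omissions 3 or 4 members were called, 3 without FoxK1 KD replicate 1, 2 or 3 or FoxK2 KD replicate 2 or 4. Pdk1, a kinase that inhibits pyruvate dehydrogenase, was at 74.6, 68.7, 69.4 and 72.7 CPM in FoxK1 KD and 106, 114, 90.4 and 99.8 CPM in FoxK2 KD. It differed by -0.52 on the log2 scale (SE 0.08, adjusted p = 0.00013), without overlap. Pdk1 and Suclg2 were the called members of 35 in the pyruvate dehydrogenase and TCA cycle list, beside 3.63% called among all genes tested. Suclg2, a succinyl-CoA ligase subunit, was at 96.0 to 119.8 CPM against 124 to 146 CPM, a log2 difference of -0.33 (adjusted p = 0.011). Suclg2 kept its call in 5 of 8 omissions (adjusted p up to 0.064 without FoxK1 KD replicate 1). Of 8 pentose phosphate genes edgeR, DESeq2 and limma-voom called 0, with 1 at an unadjusted p below 0.05, and the smallest p were those of Pgd (-0.22, adjusted p = 0.23) and Pgls (0.15, adjusted p = 0.76).

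Cholesterol synthesis and LDL uptake had 6 of 28 tested members lower and 0 higher, and all 28 had a negative log2 difference (median -0.17). Hsd17b7, a sterol reductase, was at 214, 219.9, 202 and 201 CPM in FoxK1 KD and 260.1, 261, 295 and 273 CPM in FoxK2 KD. It differed by -0.38 on the log2 scale (SE 0.07, adjusted p = 0.0012), without overlap. Dhcr7, the reductase of the last step, was at 217 to 242 CPM against 271 to 292 CPM, a log2 difference of -0.29 (adjusted p = 0.011). Dhcr7 kept its call in 7 of 8 omissions (adjusted p up to 0.051 without FoxK1 KD replicate 3). Both reductases were lower in every FoxK1 KD library. Acat2, a thiolase at the start of the pathway, was at 412 to 481 CPM against 552 to 590.4 CPM, a log2 difference of -0.37 (adjusted p = 0.041). Acat2 kept its call in 0 of 8 omissions (adjusted p up to 0.13 without FoxK1 KD replicate 3). Lss, lanosterol synthase, was at 486 to 545 CPM against 589 to 606 CPM, a log2 difference of -0.23 (adjusted p = 0.043). Lss kept its call in 1 of 8 omissions (adjusted p up to 0.13 without FoxK1 KD replicate 3). Stard4, a sterol carrier, differed by -0.24 on the log2 scale (adjusted p = 0.049, call kept in 0 of 8 omissions). Over the omissions, 2 members were called without FoxK1 KD replicate 3, 4 without FoxK1 KD replicate 2 and 3 without each other library.

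Fatty acid synthesis and desaturation had 5 of 28 tested members lower and 0 higher (median -0.14), Scd1 among them. Elovl5, an elongase of polyunsaturated chains, was at 249, 235, 224 and 210.1 CPM in FoxK1 KD and 286, 334, 305 and 308 CPM in FoxK2 KD. It differed by -0.43 on the log2 scale (SE 0.10, adjusted p = 0.0074), without overlap. Acsl3, an acyl-CoA synthetase of the ER and lipid droplets, was at 193 to 228 CPM against 261 to 272 CPM, a log2 difference of -0.33 (adjusted p = 0.0095). Acsl3 kept its call in 7 of 8 omissions (adjusted p up to 0.054 without FoxK1 KD replicate 4). Lpin2, a phosphatidate phosphatase, was at 120.2 to 139 CPM against 154 to 166 CPM, a log2 difference of -0.32 (adjusted p = 0.013). Lpin2 kept its call in 5 of 8 omissions (adjusted p up to 0.065 without FoxK1 KD replicate 2). Smaller still was the difference of a close relative of Scd1. Scd2, which may share reads with Scd1, was at 4324 to 4566 CPM against 5026 to 5397 CPM, a log2 difference of -0.25 (adjusted p = 0.03). Scd2 kept its call in 1 of 8 omissions (adjusted p up to 0.1 without FoxK2 KD replicate 2). Over the omissions, 3 members were called without FoxK1 KD replicate 2, 3 or 4 or FoxK2 KD replicate 2, and 4 or 5 otherwise.

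**Figure D3:**
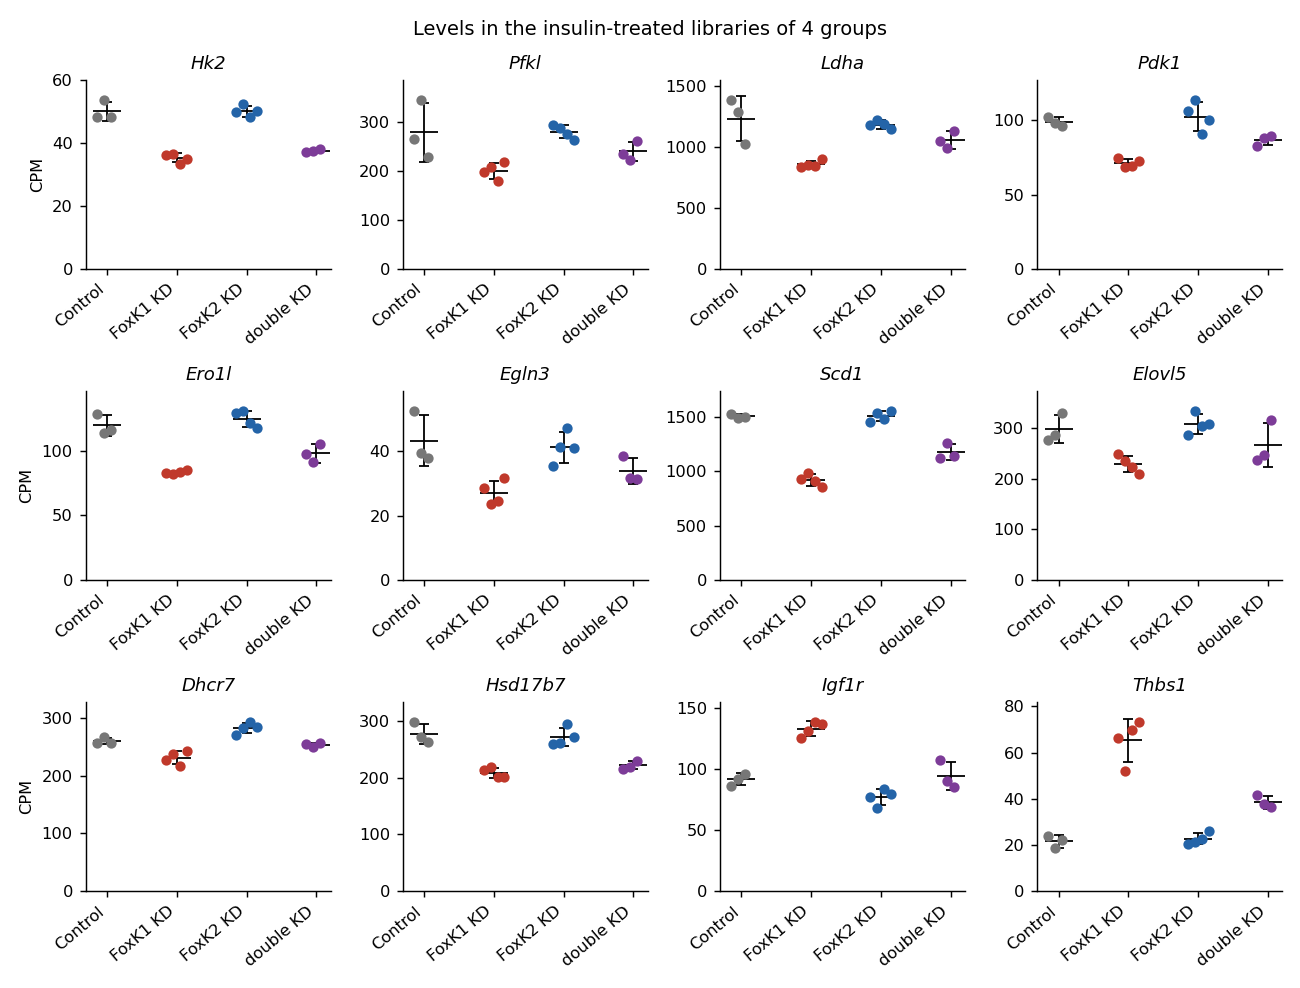
CPM of 12 genes in the insulin-treated Control (n = 3), FoxK1 KD (n = 4), FoxK2 KD (n = 4) and double KD (n = 3) libraries, where points are libraries, the long bar is the mean and the whiskers 1 SD. From Hk2 to Hsd17b7 the 4 FoxK1 KD points lie below all FoxK2 KD points, and for Igf1r and Thbs1 they lie above them.

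Chaperones of the endoplasmic reticulum and the unfolded protein response had 6 of 32 tested members lower and 0 higher (median -0.17), Ero1l among them. Hyou1, an Hsp70-type chaperone, was at 250.5 to 306 CPM against 315 to 369 CPM, a log2 difference of -0.37 (adjusted p = 0.014). Hyou1 kept its call in 4 of 8 omissions (adjusted p up to 0.06 without FoxK1 KD replicate 2). Hspa5, the chaperone BiP, was at 745 to 833 CPM against 897 to 958 CPM, a log2 difference of -0.24 (adjusted p = 0.027). Hspa5 kept its call in 3 of 8 omissions (adjusted p up to 0.1 without FoxK1 KD replicate 2). These folding factors are abundant in secretory cells. Pdia4, a disulfide isomerase, was at 232 to 249 CPM against 282 to 335 CPM, a log2 difference of -0.29 (adjusted p = 0.03). Pdia4 kept its call in 2 of 8 omissions (adjusted p up to 0.16 without FoxK2 KD replicate 2). Xbp1, a transcription factor of the response, was at 132 to 152 CPM against 163 to 198 CPM, a log2 difference of -0.36 (adjusted p = 0.036). Xbp1 kept its call in 2 of 8 omissions (adjusted p up to 0.14 without FoxK2 KD replicate 2). Herpud1, of ER-associated degradation, differed by -0.31 on the log2 scale (adjusted p = 0.049, call kept in 2 of 8 omissions). Calls other than Ero1l did not hold throughout. Only 1 member was called without FoxK1 KD replicate 1 or 2 or FoxK2 KD replicate 2, 3 without FoxK2 KD replicate 1 and 4 in each other omission.

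ATF4 targets, amino acid synthesis and tRNA charging had 4 of 40 tested members lower and 0 higher (median -0.15). Psat1, an enzyme of serine synthesis, was at 812, 815, 777 and 795 CPM in FoxK1 KD and 921, 1053, 1116 and 1016 CPM in FoxK2 KD. It differed by -0.36 on the log2 scale (SE 0.08, adjusted p = 0.0043), without overlap. Asns, asparagine synthetase, was at 283 to 319.9 CPM against 363 to 422 CPM, a log2 difference of -0.34 (adjusted p = 0.014). Asns kept its call in 6 of 8 omissions (adjusted p up to 0.066 without FoxK2 KD replicate 3). Slc7a5, a transporter of leucine and other large amino acids, was at 65.0 to 82.6 CPM against 85.3 to 100.1 CPM, a log2 difference of -0.36 (adjusted p = 0.021). Slc7a5 kept its call in 4 of 8 omissions (adjusted p up to 0.097 without FoxK1 KD replicate 4). Trib3, a pseudokinase that binds AKT, was at 18.8 to 29.1 CPM against 28.6 to 39.7 CPM, a log2 difference of -0.55 (adjusted p = 0.021). Trib3 kept its call in 4 of 8 omissions (adjusted p up to 0.097 without FoxK1 KD replicate 1). Of these, Trib3 alone had overlapping libraries. Over the omissions, 1 member was called without FoxK2 KD replicate 3, 2 without FoxK1 KD replicate 1, 3 or 4, and 3 to 5 without the others.

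**Figure D4:**
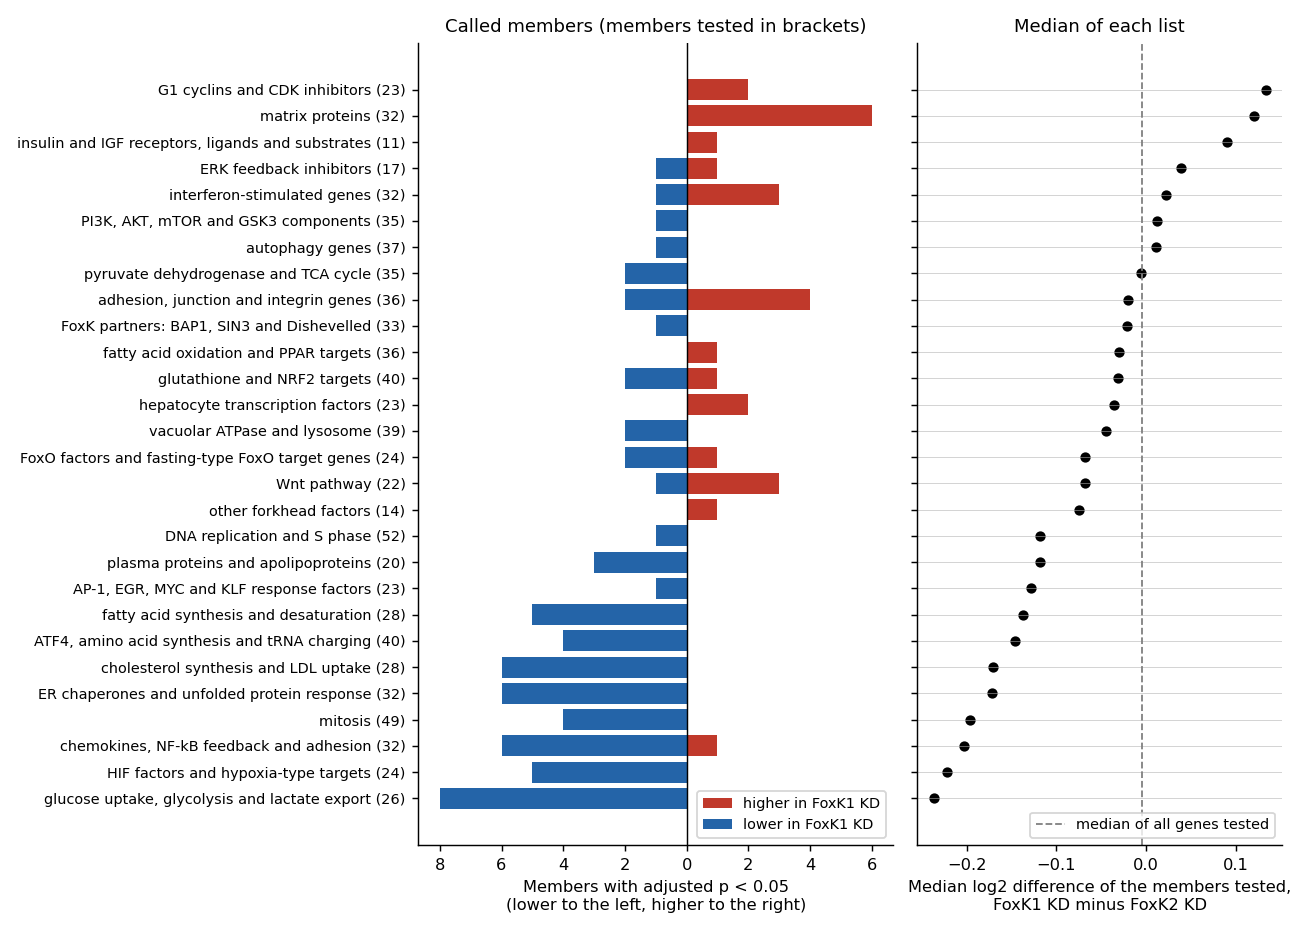
Gene lists with at least 1 called member, without the cell type markers, the study's gene groups and the lists drawn up after values were seen. On the left, bars count members called lower (to the left) or higher (to the right) in FoxK1 KD, with members tested in brackets, and on the right points give the median log2 difference, with that of all genes as a dashed line. The glycolysis list has 8 members lower and the lowest median plotted, and the matrix list has 6 members higher.

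Components of the insulin pathway itself had single calls in small lists, where 3.63% of all genes tested were called. Of 11 tested receptors, ligands and substrates Igf1r was called (median 0.09), and of 35 PI3K, AKT, mTOR and GSK3 components Trib3 (median 0.01). FoxO factors and fasting-type targets had 1 of 24 higher and 2 lower (median -0.07), Bnip3 among the lower. Foxo3, a FoxO factor, was at 226 to 241 CPM against 266 to 289 CPM, a log2 difference of -0.25 (adjusted p = 0.021). Foxo3 kept its call in 4 of 8 omissions (adjusted p up to 0.089 without FoxK2 KD replicate 2). Fbxo32, the ubiquitin ligase atrogin-1, was at 29.5 to 41.1 CPM against 23.4 to 28.3 CPM, a log2 difference of 0.43 (adjusted p = 0.022). Fbxo32 kept its call in 3 of 8 omissions (adjusted p up to 0.15 without FoxK1 KD replicate 3). No direction was thus shared by these targets. The other forkhead factors had 1 call of 14 (median -0.07). Foxa1, a pioneer factor of liver genes, was at 19.6, 19.0, 17.4 and 21.5 CPM in FoxK1 KD and 9.70, 11.8, 12.4 and 12.9 CPM in FoxK2 KD. It differed by 0.74 on the log2 scale (SE 0.14, adjusted p = 0.0014), without overlap. Partners of the FoxK proteins (BAP1, SIN3 and Dishevelled) had 1 call of 33 (median -0.02). Sap30, a SIN3 complex subunit, was at 39.0 to 59.4 CPM against 68.8 to 82.2 CPM, a log2 difference of -0.54 (adjusted p = 0.0073). Sap30 kept its call in 7 of 8 omissions (adjusted p up to 0.055 without FoxK1 KD replicate 4). The cell cycle genes Cdkn1b, encoding p27, and Ccng2, cyclin G2, which the study examined for FoxK binding, did not pass. Cdkn1b was at 150.3 to 184 CPM against 178 to 206 CPM, a log2 difference of -0.21 (adjusted p = 0.3). Ccng2 was at 184 to 219.7 CPM against 198 to 248 CPM, a log2 difference of -0.16 (adjusted p = 0.49).

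Wnt pathway genes had 3 of 22 tested members higher and 1, Axin2, lower (median -0.07), where 3.63% of all genes tested were called. Of the 22, 14 had a negative and 8 a positive difference. Tcf7l2, a nuclear effector, was at 37.9 to 45.8 CPM against 29.7 to 34.0 CPM, a log2 difference of 0.43 (adjusted p = 0.025). Tcf7l2 kept its call in 3 of 8 omissions (adjusted p up to 0.1 without FoxK1 KD replicate 1). Wnt9a, a ligand, was at 8.87 to 15.7 CPM against 6.60 to 8.49 CPM, a log2 difference of 0.86 (adjusted p = 0.025). Wnt9a kept its call in 3 of 8 omissions (adjusted p up to 0.096 without FoxK1 KD replicate 2). Wnt7b, a ligand, was at 21.6 to 26.9 CPM against 14.8 to 19.7 CPM, a log2 difference of 0.52 (adjusted p = 0.042). Wnt7b kept its call in 2 of 8 omissions (adjusted p up to 0.15 without FoxK2 KD replicate 1). Tcf7l2, Wnt9a and Wnt7b were thus higher where the feedback gene Axin2 was lower, but each lost its call in most omissions. Most of the list had a negative difference. ERK feedback inhibitors had 1 of 17 higher and 1 lower (median 0.04). Dusp1, a MAP kinase phosphatase, was at 26.6 to 34.1 CPM against 15.96 to 25.5 CPM, a log2 difference of 0.61 (adjusted p = 0.036). Dusp1 kept its call in 1 of 8 omissions (adjusted p up to 0.15 without FoxK2 KD replicate 2). Spred2, an inhibitor of RAS to ERK signaling, was at 18.6 to 28.4 CPM against 31.2 to 37.3 CPM, a log2 difference of -0.50 (adjusted p = 0.026). Spred2 kept its call in 2 of 8 omissions (adjusted p up to 0.14 without FoxK1 KD replicate 4). Egr1 was the called member of 23 AP-1, EGR, MYC and KLF response factors (median -0.13), beside 3.63% called among all genes tested.

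Several matrix genes were higher in FoxK1 KD cells, with 6 of 32 tested members higher and 0 lower (median 0.12), Thbs1 first. Sparc, a collagen-binding glycoprotein, was at 273, 302, 331 and 315 CPM in FoxK1 KD and 225, 216, 228 and 226 CPM in FoxK2 KD. It differed by 0.45 on the log2 scale (SE 0.07, adjusted p = 0.00014), without overlap. Col27a1, a fibrillar collagen, was at 68.3 to 86.5 CPM against 41.8 to 62.6 CPM, a log2 difference of 0.67 (adjusted p = 0.0023). These libraries did not overlap either. Col12a1, a collagen of fibril surfaces, was at 34.0 to 47.7 CPM against 21.5 to 28.9 CPM, a log2 difference of 0.63 (adjusted p = 0.025). Col12a1 kept its call in 5 of 8 omissions (adjusted p up to 0.13 without FoxK1 KD replicate 1). Ccn1, a matricellular protein, was at 32.3 to 42.5 CPM against 20.4 to 28.0 CPM, a log2 difference of 0.56 (adjusted p = 0.035). Ccn1 kept its call in 2 of 8 omissions (adjusted p up to 0.16 without FoxK1 KD replicate 1). Timp2, a metalloprotease inhibitor, differed by 0.28 on the log2 scale (adjusted p = 0.038, call kept in 1 of 8 omissions). Over the omissions, 3 members were called without FoxK1 KD replicate 1 or FoxK2 KD replicate 2, and 4 or 5 otherwise. Fibroblast markers summed to 0.373 to 0.847 CPM in FoxK1 KD against 0.275 to 0.882 CPM in FoxK2 KD, and 9 of 14, including Col1a2, Col3a1 and Pdgfrb, had no count. Endothelial markers summed to 0.742 to 2.59 CPM against 0.315 to 1.54 CPM, and 4 of 11, including Cdh5, had no count.

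Adhesion, junction and integrin genes had 4 of 36 tested members higher and 2 lower (median -0.02). Adgrg1, an adhesion G protein-coupled receptor, was at 71.7, 73.2, 55.0 and 70.5 CPM in FoxK1 KD and 45.4, 47.6, 46.4 and 48.8 CPM in FoxK2 KD. It differed by 0.53 on the log2 scale (SE 0.09, adjusted p = 0.00034), without overlap. Itga3, an integrin subunit that binds laminin, was at 265 to 311 CPM against 212 to 228 CPM, a log2 difference of 0.37 (adjusted p = 0.0029). Ncam1, a neural cell adhesion molecule, was at 70.9 to 90.5 CPM against 52.0 to 63.3 CPM, a log2 difference of 0.48 (adjusted p = 0.0092). Ncam1 kept its call in 6 of 8 omissions (adjusted p up to 0.059 without FoxK1 KD replicate 1). Vcam1, in this list too, was lower. Cdh1, E-cadherin, differed by -0.26 on the log2 scale (adjusted p = 0.044, call kept in 2 of 8 omissions). Without FoxK1 KD replicate 1 or FoxK2 KD replicate 2, 2 members were called higher. A list of YAP and TEAD targets, drawn up after values were seen and so a description only, had 7 of 19 tested members higher and 0 lower (median 0.28). Amotl2, an angiomotin-like junction protein, was at 292, 359.9, 367 and 328 CPM in FoxK1 KD and 188, 172, 222 and 209 CPM in FoxK2 KD. It differed by 0.77 on the log2 scale (SE 0.09, adjusted p = 6.8e-07), without overlap. Nuak2, a kinase of the AMPK family, was at 191 to 222 CPM against 105 to 132 CPM, a log2 difference of 0.79 (adjusted p = 0.00011). Ptpn14, a phosphatase that binds YAP, was at 203 to 237 CPM against 158 to 180.1 CPM, a log2 difference of 0.39 (adjusted p = 0.0031). Axl, given above, belongs to this list as well. Ankrd1, an ankyrin-repeat protein, was at 113 to 135 CPM against 76.2 to 110.4 CPM, a log2 difference of 0.39 (adjusted p = 0.031). Ankrd1 kept its call in 3 of 8 omissions (adjusted p up to 0.17 without FoxK2 KD replicate 2). Between 4, without FoxK1 KD replicate 1 or FoxK2 KD replicate 2, and 7 members of the YAP list were called over the omissions.

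Chemokines, NF-kB feedback and adhesion genes had 6 of 32 tested members lower and 1 higher (median -0.20), Vcam1 among the lower. Il33, an alarmin cytokine, was at 74.2, 74.7, 81.3 and 70.9 CPM in FoxK1 KD and 103, 101, 129 and 111 CPM in FoxK2 KD. It differed by -0.56 on the log2 scale (SE 0.10, adjusted p = 0.001), without overlap. Cxcl5, a neutrophil chemokine, was at 1259 to 1565 CPM against 1870.3 to 2210.2 CPM, a log2 difference of -0.47 (adjusted p = 0.011). Cxcl5 kept its call in 7 of 8 omissions (adjusted p up to 0.062 without FoxK1 KD replicate 4). Cxcl16, a membrane-bound chemokine, was at 10.02 to 13.7 CPM against 16.8 to 20.5 CPM, a log2 difference of -0.70 (adjusted p = 0.014). Cxcl16 kept its call in 6 of 8 omissions (adjusted p up to 0.063 without FoxK1 KD replicate 2). Of the 32 tested members 25 had a negative and 7 a positive difference. Cxcl3, a neutrophil chemokine, differed by -0.50 on the log2 scale (adjusted p = 0.02, call kept in 5 of 8 omissions). C3, the central complement protein, was at 365 to 597 CPM against 649.5 to 803 CPM, a log2 difference of -0.57 (adjusted p = 0.026). C3 kept its call in 3 of 8 omissions (adjusted p up to 0.14 without FoxK1 KD replicate 2). Control cells after insulin had C3 at 417 ± 80.6 CPM, nearer to FoxK1 KD. Lbp, which presents bacterial lipopolysaccharide, was at 459.6 to 546 CPM against 375 to 412 CPM, a log2 difference of 0.36 (adjusted p = 0.0043). Over the omissions, 3 members were lower without FoxK1 KD replicate 2, 4 without FoxK1 KD replicate 1 or 4 or FoxK2 KD replicate 2, and 5 or 6 otherwise. Interferon-stimulated genes went both ways, with 3 of 32 higher (Ifit3, Ifit3b and Irgm1) and 1 lower (median 0.02). Irgm1, an immunity-related GTPase, was at 229 to 244 CPM against 178 to 192 CPM, a log2 difference of 0.37 (adjusted p = 0.0044). H2-K1, a class I MHC molecule, was at 86.8 to 115 CPM against 131 to 144 CPM, a log2 difference of -0.46 (adjusted p = 0.0077). H2-K1 kept its call in 7 of 8 omissions (adjusted p up to 0.051 without FoxK1 KD replicate 1). Tlr2, a receptor for bacterial lipoproteins picked after its value was seen, was at 11.1 to 17.9 CPM against 21.4 to 26.8 CPM, a log2 difference of -0.73 (adjusted p = 0.0033).

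Mitosis genes had 4 of 49 tested members lower and 0 higher (median -0.20), and 44 of the 49 had a negative difference. The called members did not keep their calls in all 8 omissions. Mad2l1, a spindle checkpoint protein, was at 170.4 to 199 CPM against 208 to 259 CPM, a log2 difference of -0.35 (adjusted p = 0.024). Mad2l1 kept its call in 3 of 8 omissions (adjusted p up to 0.11 without FoxK2 KD replicate 2). Espl1, separase, was at 69.8 to 74.2 CPM against 85.3 to 97.7 CPM, a log2 difference of -0.35 (adjusted p = 0.03). Espl1 kept its call in 1 of 8 omissions (adjusted p up to 0.1 without FoxK1 KD replicate 2). Kif2c, a kinesin that depolymerizes microtubules, was at 30.5 to 35.8 CPM against 38.1 to 49.1 CPM, a log2 difference of -0.36 (adjusted p = 0.046). Kif2c kept its call in 1 of 8 omissions (adjusted p up to 0.16 without FoxK2 KD replicate 3). All of these were close to the threshold. Bub1b, a checkpoint kinase, was at 71.3 to 83.4 CPM against 85.0 to 99.8 CPM, a log2 difference of -0.32 (adjusted p = 0.049). Bub1b kept its call in 1 of 8 omissions (adjusted p up to 0.14 without FoxK2 KD replicate 4). The list had 0 calls without FoxK1 KD replicate 1 or 4 or FoxK2 KD replicate 3, 2 without FoxK1 KD replicate 3 and 1 without each other library. DNA replication genes had 1 of 52 lower (median -0.12), beside 1.64% called lower among all genes tested. Of the 52, 43 had a negative difference. E2f8, a repressive E2F factor, was at 54.6 to 61.2 CPM against 69.3 to 88.6 CPM, a log2 difference of -0.40 (adjusted p = 0.02). E2f8 kept its call in 4 of 8 omissions (adjusted p up to 0.09 without FoxK2 KD replicate 3). G1 cyclins and CDK inhibitors had 2 of 23 higher and 0 lower (median 0.13). Ccnd1, cyclin D1, was at 759.9, 734, 713 and 746 CPM in FoxK1 KD and 629, 541, 570.0 and 565 CPM in FoxK2 KD. It differed by 0.36 on the log2 scale (SE 0.08, adjusted p = 0.0042), without overlap. E2f5, an E2F factor that binds pocket proteins, was at 12.3 to 14.8 CPM against 6.98 to 9.48 CPM, a log2 difference of 0.76 (adjusted p = 0.0087). Apoptosis regulators had 0 calls of 31 by edgeR, DESeq2 and limma-voom, with 6 at an unadjusted p below 0.05. Without FoxK2 KD replicate 3, or with GC and length trends removed, 1 member was called lower. Their smallest p was that of Bcl2l11, encoding BIM (-0.36, adjusted p = 0.064).

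Mitochondrial, translation and clock lists gave 0 calls by edgeR in the fit used throughout, and 0 by DESeq2 and limma-voom but for 1 clock gene with each. Other edgeR settings called single members. Nuclear complex I genes had 0 of 35 called, 2 at an unadjusted p below 0.05 (median 0.05), led by Ndufb3 (0.53, adjusted p = 0.24) and Ndufc1 (0.53, adjusted p = 0.25). Genes of complexes III to V had 0 of 38 called, 1 at an unadjusted p below 0.05 (median 0.10), led by Uqcrh (0.29, adjusted p = 0.28) and Cox6b1 (0.44, adjusted p = 0.32). Mitochondrially encoded protein genes had 0 of 11 called, 1 at an unadjusted p below 0.05 (median 0.09), led by mt-Nd4 (0.36, adjusted p = 0.25) and mt-Nd5 (0.18, adjusted p = 0.5). Genes of mitochondrial fusion, fission, import and shape had 0 of 31 called, 1 at an unadjusted p below 0.05 (median -0.02), led by Fis1 (0.35, adjusted p = 0.11) and Tomm40 (-0.26, adjusted p = 0.31). Cytosolic ribosomal proteins had 0 of 78 called, 0 at an unadjusted p below 0.05 (median 0.01), led by Rps4x (-0.13, adjusted p = 0.41) and Rpl10 (0.20, adjusted p = 0.42). Clock genes had 0 of 19 called, 4 at an unadjusted p below 0.05 (median -0.0013), with Bhlhe40 (-0.22, adjusted p = 0.051) and Nfil3 (-0.38, adjusted p = 0.12) nearest. With only the 8 libraries fitted, 1 member of complexes III to V, 1 mitochondrially encoded gene and 1 gene of fusion and import were called higher. With every gene of at least 1 count fitted, 2 members of complexes III to V and 1 mitochondrially encoded gene were called higher and 1 ribosomal protein lower. Removing GC and length trends called 1 gene of fusion and import higher. In the clock list 1 gene was called lower with RLE size factors, with at least 10 counts in every library, with GC and length trends removed and with thinned libraries. A p above the threshold does not show that these levels were equal.

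Catabolic and redox lists had scattered calls, beside 3.63% called among all genes tested. Fatty acid oxidation had 1 of 36 higher (median -0.03). Cpt1c, a brain-type carnitine palmitoyltransferase, was at 17.9 to 31.5 CPM against 13.04 to 18.1 CPM, a log2 difference of 0.65 (adjusted p = 0.033). Cpt1c kept its call in 2 of 8 omissions (adjusted p up to 0.21 without FoxK1 KD replicate 4). Autophagy had 1 of 37 lower (median 0.01). Becn1, encoding Beclin 1, was at 143 to 158 CPM against 180.5 to 211 CPM, a log2 difference of -0.36 (adjusted p = 0.035). Becn1 kept its call in 1 of 8 omissions (adjusted p up to 0.12 without FoxK2 KD replicate 3). Lysosome and vacuolar ATPase genes had 2 of 39 lower (median -0.04). Ctsc, a cathepsin, was at 48.9 to 58.4 CPM against 59.8 to 82.2 CPM, a log2 difference of -0.44 (adjusted p = 0.012). Ctsc kept its call in 6 of 8 omissions (adjusted p up to 0.081 without FoxK2 KD replicate 2). Gaa, the lysosomal alpha-glucosidase, was at 269 to 324 CPM against 334 to 369.8 CPM, a log2 difference of -0.27 (adjusted p = 0.038). Gaa kept its call in 2 of 8 omissions (adjusted p up to 0.16 without FoxK1 KD replicate 3). Glutathione and NRF2 genes had 1 of 40 higher and 2 lower (median -0.03). Ephx1, an epoxide hydrolase, was at 171 to 192 CPM against 126 to 144 CPM, a log2 difference of 0.43 (adjusted p = 0.018). Ephx1 kept its call in 5 of 8 omissions (adjusted p up to 0.068 without FoxK2 KD replicate 1). Abcc2, an exporter of conjugates into bile, was at 944 to 1049.8 CPM against 1177 to 1254 CPM, a log2 difference of -0.28 (adjusted p = 0.018). Abcc2 kept its call in 4 of 8 omissions (adjusted p up to 0.075 without FoxK1 KD replicate 4). Gsta3, a glutathione transferase, was at 230.3 to 289 CPM against 319 to 361 CPM, a log2 difference of -0.33 (adjusted p = 0.04). Gsta3 kept its call in 0 of 8 omissions (adjusted p up to 0.17 without FoxK1 KD replicate 3).

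Hepatocyte gene lists had a few called members, beside 3.63% called among all genes tested. Liver transcription factors had 2 of 23 higher (median -0.04), Foxa1 and Onecut2. Onecut2, a homeobox factor of liver development, was at 97.1 to 114 CPM against 72.5 to 85.4 CPM, a log2 difference of 0.38 (adjusted p = 0.025). Onecut2 kept its call in 2 of 8 omissions (adjusted p up to 0.098 without FoxK1 KD replicate 3). Plasma proteins had 3 of 20 lower (median -0.12), C3 among them. Hpx, hemopexin, which binds heme, was at 83.5, 81.8, 91.9 and 77.6 CPM in FoxK1 KD and 112, 113, 108 and 117 CPM in FoxK2 KD. It differed by -0.43 on the log2 scale (SE 0.10, adjusted p = 0.011), without overlap. Hpx kept its call in 7 of 8 omissions (adjusted p up to 0.052 without FoxK1 KD replicate 4). Rbp4, the plasma retinol carrier, was at 286 to 391.9 CPM against 402 to 487 CPM, a log2 difference of -0.41 (adjusted p = 0.026). Rbp4 kept its call in 3 of 8 omissions (adjusted p up to 0.11 without FoxK1 KD replicate 3). Bile acid, urea cycle and metabolic genes had 0 calls of 11 by edgeR, DESeq2 and limma-voom, with 2 at an unadjusted p below 0.05, led by Cth (-0.47, adjusted p = 0.074) and Slc10a2 (-0.33, adjusted p = 0.19). In that list 1 member was called lower without FoxK1 KD replicate 3, with only the 8 libraries fitted and with every gene of at least 1 count fitted. The 8 tested hepatocyte markers had 0 calls by the same tools, with 1 at an unadjusted p below 0.05, led by Cebpa (-0.54, adjusted p = 0.18) and Foxa2 (-0.26, adjusted p = 0.38), and 1 was called higher with only the 8 libraries fitted. Cholangiocyte and progenitor markers had 1 of 7 higher. Krt7, a keratin of bile duct cells, was at 26.6 to 32.3 CPM against 13.5 to 23.1 CPM, a log2 difference of 0.86 (adjusted p = 0.0029). The summed level of that marker list was 2313 to 2568 CPM in FoxK1 KD against 2611 to 3097 CPM in FoxK2 KD, most of it Spp1 and Krt19, and 4 of its 11 members, Epcam among them, had no count.

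Group I and Group II come from libraries of this series, so they are no independent evidence of direction. The study's text describes them as genes changed in double KD cells, and its figure caption as those most changed among all groups. Of 6 Group I genes it names, Ccnd1, Adgrg1 and Alpl were higher after insulin. Alpl, tissue-nonspecific alkaline phosphatase, was at 15.5 to 18.6 CPM against 11.003 to 12.6 CPM, a log2 difference of 0.53 (adjusted p = 0.041). Alpl kept its call in 0 of 8 omissions (adjusted p up to 0.12 without FoxK1 KD replicate 4). The others did not pass. Mcam, a melanoma-type adhesion molecule, was at 4.48 to 6.65 CPM against 1.93 to 3.97 CPM, a log2 difference of 0.91 (adjusted p = 0.074). Wdr45, of the autophagy WIPI family, was at 31.3 to 44.9 CPM against 25.6 to 33.4 CPM, a log2 difference of 0.39 (adjusted p = 0.17). Sgk1, a kinase related to AKT, was at 39.0 to 55.9 CPM against 39.4 to 50.3 CPM, a log2 difference of 0.13 (adjusted p = 0.64). Of 6 Group II genes it names apart from the targets, Scd1, Scd2, Vcam1, Tgoln1 and Aff4 were lower. mt-Nd6, a complex I subunit, was at 152 to 186 CPM against 146 to 186 CPM, a log2 difference of 0.06 (adjusted p = 0.86).

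A list of 7 long non-coding RNAs, grouped as nuclear, was drawn up after values were seen, and 5 of them had enough counts to be tested. Whether each of them stays in the nucleus of these cells was not measured. The 5 tested were called higher in FoxK1 KD, and the others, Meg3 and Airn, were not tested. Malat1, an abundant long non-coding RNA of nuclear speckles, was at 795, 1009, 990.2 and 783 CPM in FoxK1 KD and 496, 430.2, 315 and 521 CPM in FoxK2 KD. It differed by 1.02 on the log2 scale (SE 0.22, adjusted p = 0.0043), without overlap. Neat1, the scaffold RNA of paraspeckles, was at 908, 1042, 971 and 922 CPM in FoxK1 KD and 562, 400.2, 421 and 431 CPM in FoxK2 KD. It differed by 1.08 on the log2 scale (SE 0.20, adjusted p = 0.0011), without overlap. Mir22hg, the host transcript of miR-22, was at 27.8 to 36.2 CPM against 14.6 to 19.5 CPM, a log2 difference of 0.999 (adjusted p = 0.0013). The remaining members lost the call whenever a library was left out. Kcnq1ot1, an imprinted antisense RNA, was at 8.59 to 10.8 CPM against 2.75 to 4.63 CPM, a log2 difference of 1.23 (adjusted p = 0.034). Kcnq1ot1 kept its call in 0 of 8 omissions (adjusted p up to 0.13 without FoxK2 KD replicate 2). Firre, an X-linked nuclear RNA, was at 157 to 172 CPM against 97.99 to 124 CPM, a log2 difference of 0.56 (adjusted p = 0.046). Firre kept its call in 0 of 8 omissions (adjusted p up to 0.13 without FoxK2 KD replicate 3). Protein-coding genes made up 10688 of the 11368 genes tested and 396 of the 413 called. Of 17 called genes that are not protein coding, 15 were higher and 2 lower, among these AW112010, at 24.0 to 27.3 CPM against 39.0 to 55.8 CPM (-0.85, adjusted p = 5.2e-05), picked after its value was seen. The part of these transcripts, and of the lower depth of the FoxK1 KD libraries, in the other results was not tested beyond the thinning given above.

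The same contrast in basal cells, made on separate libraries, gave 242 genes higher and 215 lower in FoxK1 KD (4.02% of genes tested). Of the 413 genes called after insulin, 384 (93.0%) had the same sign in basal cells, against 62.1% of all genes tested. Both states called 142 genes in the same direction, 34.4% of the insulin calls and 31.1% of the basal calls, and 0 in opposite directions. Basal log2 differences were 1.06 for Thbs1, 2.10 for Siglecg, -1.07 for Vcam1, -0.64 for Scd1, -0.67 for Tgoln1 and -0.49 for Psat1, all called there. Smaller basal values were those of Igf1r (0.28, adjusted p = 0.044), Hk2 (-0.21, adjusted p = 0.43), Egln3 (-0.12, adjusted p = 0.71) and Ndrg1 (-0.06, adjusted p = 0.7).

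Whether the difference between the knockdowns itself changed with insulin was tested. edgeR called 0 genes, with 917 at an unadjusted p below 0.05 and a smallest adjusted p of 0.443, and DESeq2 and limma-voom also called 0. The change of the contrast was 0.51 (SE 0.12, adjusted p = 0.44) for Igf1r, -0.30 (SE 0.17, adjusted p = 0.7) for Hk2 and -0.38 (SE 0.10, adjusted p = 0.44) for Ndrg1. The median SE of this change was 0.19 on the log2 scale. The count depended on the filter, since edgeR called 49 genes when every gene with at least 1 count was fitted, all of them genes of the filtered table.

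**Figure D5:**
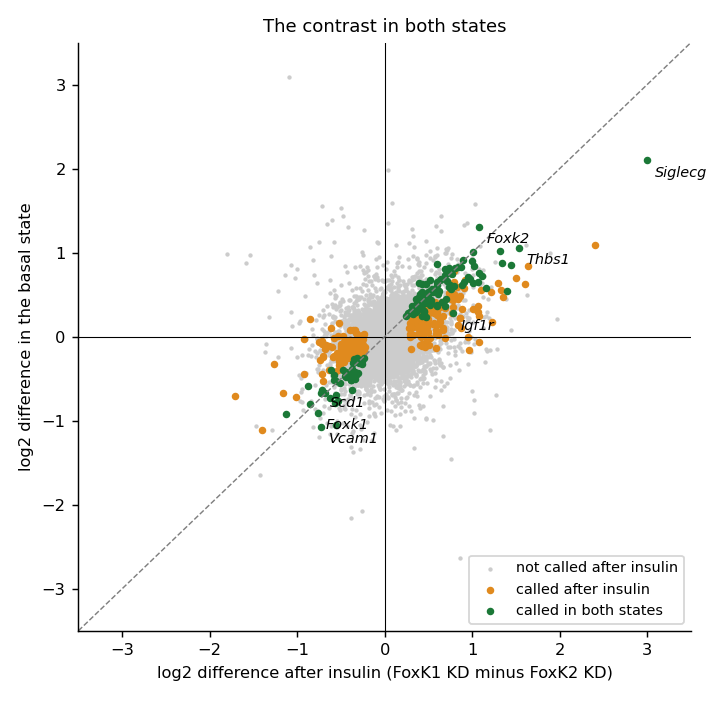
The log2 difference of FoxK1 KD minus FoxK2 KD after insulin (horizontal) and in the basal state (vertical), each point a gene, with orange for genes called after insulin only, green for genes called in both states, gray for genes not called after insulin, and a dashed line of equal differences. Of the 413 genes called after insulin, 384 have the same sign in both states.

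Set against Control cells after insulin, FoxK1 KD had 212 genes higher and 196 lower, and FoxK2 KD 1 higher and 2 lower. These comparisons share the 3 Control libraries with each other and the knockdown libraries with the main contrast, and their median SE was 0.15 and 0.14. The 3 genes called in FoxK2 KD were Foxk2, Lamb3, a laminin chain (-0.45, adjusted p = 0.027), and Pdcd4, a translation inhibitor (0.50, adjusted p = 0.024), the last 2 named after their values were seen. The log2 difference from Control was 1.59 in FoxK1 KD and 0.05 in FoxK2 KD for Thbs1. For Scd1 it was -0.71 in FoxK1 KD and -0.00065 in FoxK2 KD, for Hk2 -0.50 in FoxK1 KD and 0.0026 in FoxK2 KD and for Vcam1 -0.63 in FoxK1 KD and 0.09 in FoxK2 KD. Of the 413 genes of the main contrast, 362 had the larger absolute difference from Control in FoxK1 KD and 51 in FoxK2 KD. Axin2, Mreg, C3 and Nos2 were among the latter, though none of these was called there. Values were -0.14 in FoxK1 KD and 0.79 in FoxK2 KD for Axin2 and -0.04 in FoxK1 KD and 0.70 in FoxK2 KD for Mreg. C3 had 0.20 in FoxK1 KD and 0.77 in FoxK2 KD, and Nos2 -0.36 in FoxK1 KD and 1.05 in FoxK2 KD.

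Double KD against Control cells after insulin shares no library with the main contrast. It had 99 genes higher and 39 lower (1.21% of genes tested). Of the 413 genes of the main contrast, 301 (72.9%) had the same sign in double KD, against 56.6% of all genes. Both comparisons called 29 genes with the same sign. Among them the log2 difference of double KD from Control was 0.83 (adjusted p = 0.0012) for Thbs1, -0.58 (adjusted p = 6.3e-05) for Aff4, -1.64 (adjusted p = 1.3e-06) for Sprr1a, -0.36 (adjusted p = 0.028) for Scd1 and 0.63 (adjusted p = 4.4e-05) for Lbp. Genes called with the opposite sign numbered 5, among them Foxk2 (-1.34, adjusted p = 5e-11), C3 (0.96, adjusted p = 0.0018), Tlr2 (0.72, adjusted p = 0.017) and the splicing factor Celf2 (-0.58, adjusted p = 0.041), the last 2 named after their values were seen. The Celf2 call of the main contrast was kept in 0 of 8 omissions.

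Promoter windows from RefSeq (GRCm38.p6, 250 bases before to 50 bases after a gene's start) were searched for the forkhead core TAAACA on either strand and for the longer GTAAACA, which contains it. A window was present for 8740 of the genes tested, 160 of the higher and 141 of the lower genes. Among genes with a window, TAAACA stood in at least 1 window for 10.2% of those tested, 16.9% of those higher and 12.1% of those lower. GTAAACA stood in 3.18%, 4.38% and 8.51% of the same genes. A gene can have several windows, with 11213 for the 8740 genes tested, 226 for the 160 higher and 185 for the 141 lower. Per window, TAAACA stood in 8.82%, 11.9% and 10.8% and GTAAACA in 2.77%, 3.10% and 6.49%, in the same order. These shares are a description without a test, and a match is not a binding site. Windows of a forkhead gene and a Wnt effector higher in FoxK1 KD, Foxa1 and Tcf7l2, and of a glycolytic and a cytokine gene lower there, Aldoc and Il33, are shown to place the core in genes of both directions. They run 5′ to 3′ on the gene's strand, with the core or its reverse complement in capitals.
Foxa1 (chr12:57546062-57546361, minus strand): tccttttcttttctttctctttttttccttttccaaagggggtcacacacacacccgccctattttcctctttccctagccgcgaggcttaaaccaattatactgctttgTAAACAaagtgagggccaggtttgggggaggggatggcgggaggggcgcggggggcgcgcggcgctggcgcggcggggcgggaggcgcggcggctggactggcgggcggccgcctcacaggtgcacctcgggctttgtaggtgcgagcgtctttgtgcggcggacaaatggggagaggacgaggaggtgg
Tcf7l2 (chr19:55741560-55741859, plus strand): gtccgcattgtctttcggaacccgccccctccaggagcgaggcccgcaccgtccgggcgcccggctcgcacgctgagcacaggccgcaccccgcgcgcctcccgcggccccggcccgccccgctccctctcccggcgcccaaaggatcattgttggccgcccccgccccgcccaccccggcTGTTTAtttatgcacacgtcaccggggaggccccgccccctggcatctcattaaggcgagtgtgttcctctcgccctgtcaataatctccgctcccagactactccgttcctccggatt
Aldoc (chr11:78323948-78324247, plus strand): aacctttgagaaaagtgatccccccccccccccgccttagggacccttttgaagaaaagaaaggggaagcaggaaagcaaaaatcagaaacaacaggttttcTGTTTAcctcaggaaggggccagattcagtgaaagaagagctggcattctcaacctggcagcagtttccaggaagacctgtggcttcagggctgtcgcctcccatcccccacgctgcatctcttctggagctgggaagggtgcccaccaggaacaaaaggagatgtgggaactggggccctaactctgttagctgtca
Il33 (chr19:29945540-29945839, plus strand): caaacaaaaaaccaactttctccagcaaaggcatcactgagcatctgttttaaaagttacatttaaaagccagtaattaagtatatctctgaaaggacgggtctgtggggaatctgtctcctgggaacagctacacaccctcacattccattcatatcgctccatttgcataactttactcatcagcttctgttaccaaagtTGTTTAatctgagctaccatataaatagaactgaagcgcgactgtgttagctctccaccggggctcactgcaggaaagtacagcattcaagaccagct

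Counted from the start, the core lies at -140 to -135 in Foxa1, -69 to -64 in Tcf7l2, -148 to -143 in Aldoc and -48 to -43 in this window of Il33. It reads TAAACA on the gene's strand in Foxa1 and on the other strand in the rest. The log2 differences of these genes were 0.74, 0.43, -0.56 and -0.56.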

How the data were processed

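The authors deposited raw read counts per gene for 30 libraries over 49089 versioned Ensembl identifiers. The submitters' processing notes name CASAVA 1.8, STAR 2.4.2a, featureCounts and GRCm38.p4. The study's tests used limma, and the strand setting is not given in the sources used here. GENCODE M21 gave symbols and coordinates for 48435 identifiers. Members and gene lists were chosen with earlier results of these data known. Genes passed the expression filter of edgeR (11368 kept), libraries were scaled by TMM, and edgeR 4.0.16 (R 4.3.3) fitted all 8 groups with 22 residual degrees of freedom, adjusting p by Benjamini-Hochberg. Levels are CPM on TMM-scaled library sizes, SDs are over libraries and SEs from the fit. DESeq2 1.42.0 and limma 3.58.1 were alternatives. Totals were 2345903 to 4440948 counts in the 8 libraries, and replicates differed by more than sampling noise (chi-square over its degrees of freedom at least 1.70 in 12 pairs). Permutation tests were exact. Named were Foxk1, Foxk2, the study's Group I and II genes, Cdkn1b and Ccng2. Also named were the 12 protein-coding genes with the largest difference and the 8 with the smallest p in each direction, at a mean log2 CPM of at least 1 without overlap, and up to 5 called members per list by p, or 2 where none was called. Others are marked as picked after their values were seen or complete a list's called members. Some genes that these rules name are not reported here. The scripts were tested on simulated data.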

Additional observations from a re-analysis of the deposited data

Results flagged for a closer look

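Of 304 groups of 4 libraries, for 152 genes examined, 19 had 1 library that stood apart from the other 3 by Dixon's test, and chance alone marks about 1 in 20. Above the other libraries were Fbxo32 in FoxK2 KD replicate 4 (28.3 against 23.4 to 23.7 CPM), Bnip3 in FoxK2 KD replicate 2 (67.9 against 40.1 to 43.8 CPM) and Pgk1 in FoxK2 KD replicate 2 (339 against 280.0 to 289 CPM). So were Bub1b in FoxK1 KD replicate 3 (83.4 against 71.3 to 72.8 CPM), Hyou1 in FoxK1 KD replicate 4 (306 against 250.5 to 257 CPM) and Bhlhe40 in FoxK1 KD replicate 2 (230.3 against 212 to 215 CPM). Also high were Cttnbp2 in FoxK2 KD replicate 4 (59.5 against 46.2 to 48.3 CPM), Sgk1 in FoxK2 KD replicate 2 (50.3 against 39.4 to 40.6 CPM) and Wdr45 in FoxK2 KD replicate 3 (33.4 against 25.6 to 26.7 CPM). Below the others were Aldoc in FoxK2 KD replicate 1 (21.4 against 28.0 to 28.8 CPM), Ndufb3 in FoxK1 KD replicate 1 (9.23 against 12.99 to 13.5 CPM) and Pdia4 in FoxK1 KD replicate 2 (232 against 246 to 249 CPM). So were Irgm1 in FoxK1 KD replicate 3 (229 against 242 to 244 CPM), Adgrg1 in FoxK1 KD replicate 3 (55.0 against 70.5 to 73.2 CPM) and Krt7 in FoxK1 KD replicate 1 (26.6 against 31.3 to 32.3 CPM). Also low were S100a7a in FoxK1 KD replicate 3 (1.69 against 5.17 to 5.5997 CPM), Prex2 in FoxK2 KD replicate 4 (19.5 against 24.0 to 24.5 CPM) and Tlr2 in FoxK2 KD replicate 1 (21.4 against 26.1 to 26.8 CPM). The last was AW112010 in FoxK1 KD replicate 1 (24.0 against 26.7 to 27.3 CPM). The calls of Fbxo32, Bnip3, Pgk1, Aldoc, Bub1b, Hyou1 and Pdia4 also changed when single libraries were left out, as given above.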

How the results depend on the processing

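With only the 8 libraries compared, 429 genes were higher and 297 lower, and 401 of the 413 calls were kept. At an adjusted p below 0.25 there were 736 and 699, and at one below 0.05 with more than 1.5-fold, 105 and 33. Leaving out 1 library gave 124 to 179 higher and 88 to 141 lower. Both counts stayed within 1.5 times with DESeq2 (387 calls kept), limma-voom (377), RLE size factors (413), a floor of 10 counts per library (393), all genes with a count (318) and GC and length trends removed (404). The change of the contrast with insulin had 49 calls when all genes with at least 1 count were fitted, and the cause was not tested. Between the FoxK1 KD and FoxK2 KD libraries after insulin, same-number correlations were -0.143 to -0.00547. There, 0 of 4 FoxK1 KD libraries correlated best with their own number, so replicate numbers did not pair these libraries. Pairing of basal with insulin-treated libraries was not examined. The replicate block gave 207 higher and 154 lower (356 kept), and the block with only the 8 libraries 336 and 194. That last setting and the thinning were chosen after seeing the data. Among named genes mt-Nd6 alone changed sign, to -0.0797 with GC and length trends removed. The mitochondrial share differed by 0.142 to 0.253 percentage points over the omissions and had an exact permutation p of 0.0571 to 0.229 over all alternatives. Depth limits genes of a few CPM, such as Mmp13 and Siglecg, to 1 to 21 reads per library.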
